A study of Mus musculus with 2 samples.

Results

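The clustered protocadherin genes are the genes on mouse chromosome 18 that GENCODE M21 annotates as protein-coding and whose symbols start with Pcdha, Pcdhb or Pcdhg. The rule found 57 genes with 56 symbols, of 21851 protein-coding genes in all, since 2 gene models share the symbol Pcdha11. They comprised 12 alpha genes and 2 alpha C-type genes (Pcdhac1 and Pcdhac2), 22 beta genes, 12 gamma A genes, 6 gamma B genes and 3 gamma C-type genes (Pcdhgc3, Pcdhgc4 and Pcdhgc5). All lay on the plus strand between 36930184 and 37841873 of the mm10 build, a span of 911.7 kb. Pcdhgb8 lies among the gamma genes but is annotated as a polymorphic pseudogene, so it was not a member. Its values are given separately.

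Clustered protocadherins are cell-surface adhesion proteins of the cadherin superfamily, best known from neurons, where each cell uses its own combination of them as an identity label. Each alpha and gamma gene has a variable first exon with its own promoter, which is spliced to constant exons shared by the whole subfamily, whereas beta genes consist of a single coding exon each. In neurons, promoters are chosen with the help of the DNA-binding protein CTCF and the cohesin complex, which bring a promoter to a distant enhancer. DNA methylation and other silencing marks hold the unused promoters inactive.

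Accessible DNA was mapped by DNase-seq, which sequences the ends that the nuclease DNase I leaves where chromatin in nuclei is open. There were 2 libraries of 1 group, naive resting CD8 alpha-beta T cells, which are cytotoxic T cells that have not met antigen. They were primary cells taken at 2 months of age from adult B6CASTF1/J mice, virgin males of a cross between inbred strains. The labels number the libraries as biological replicates 2 and 3. They share 1 donor label and differ in biosample label, so their origin from separate animals is uncertain.

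The stricter peak list, whose chromosome 18 peaks all reached a false discovery rate of 0.001 or lower, had 38223 peaks in replicate 2 and 17061 in replicate 3. The permissive list, with a limit of 0.05, had 53597 and 24844. The signal of a peak has no stated unit. If it was scaled to depth, replicate 2 had 6.05 times the depth of replicate 3. Of 9 T cell markers, 7 had a stricter promoter peak in replicate 2 and 1, Cd8b1, in replicate 3. The shares over all protein-coding genes were 49.2% and 39.9%, so the 11.1% of these markers in replicate 3 lay below the general share. Cd2 had no call in either peak list. Cd8a had no stricter peak in either library and a signal of 1.18 in the permissive list of replicate 2 alone. Of 6 neuronal markers, 2 had a stricter promoter peak in replicate 2 and 1 in replicate 3. The signals of Cd8b1 were 4.17 and 3.16. The 5 B cell markers and the 2 NK markers had none in either library. Of 5 myeloid markers, Itgam (0.66) and Cd68 (0.87) had a stricter peak in replicate 2, and none did in replicate 3. Epcam, an epithelial marker, had 0.56 in the stricter list of replicate 2 and 0.81 in the permissive list of replicate 3. The other 3 markers of its list (Gfap, Aqp4 and Col1a1) had none.

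Most clustered protocadherin promoters had no open chromatin call in either library. Promoter windows reached 500 bp to each side of a transcription start, and a peak was counted when it overlapped that window by 1 bp or more. In the stricter list of replicate 2, 4 of 57 members had a promoter peak (7.02%, Wilson 95% interval 2.76 to 16.7), beside 49.2% of all protein-coding genes. In replicate 3 it was 0 of 57 (interval 0 to 6.31), beside 39.9%. No member had one in both libraries, beside 39.8%. In the permissive lists the counts were 7 of 57 in replicate 2 (12.3%, interval 6.08 to 23.2), beside 52.9%, and 1 of 57 in replicate 3 (1.75%, interval 0.310 to 9.29), beside 44.4%. That gene, Pcdhgb7, was called in both libraries, beside 44.3% of all genes. The intervals cover counting error only and treat genes as independent, although the members share sequence and neighbours.

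The other deposited lists are not independent of the peaks, since all lists of a library came from its own alignments. In replicate 2, the 7 genes with a permissive peak were also those with a footprint in the promoter window (51.3% of all genes had one) and those with a position in the false discovery rate list (53.8%). A footprint is a short run of bases within open chromatin that DNase I cuts less. In replicate 3, 0 members had a footprint, beside 37.0% of all genes, and 1 member, Pcdhgb7, had a listed position, beside 45.4%. A missing call does not show that a promoter was closed. In cells measured in bulk, a weak opening in all cells and an opening in a few cells cannot be told apart.

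**Figure D1:**
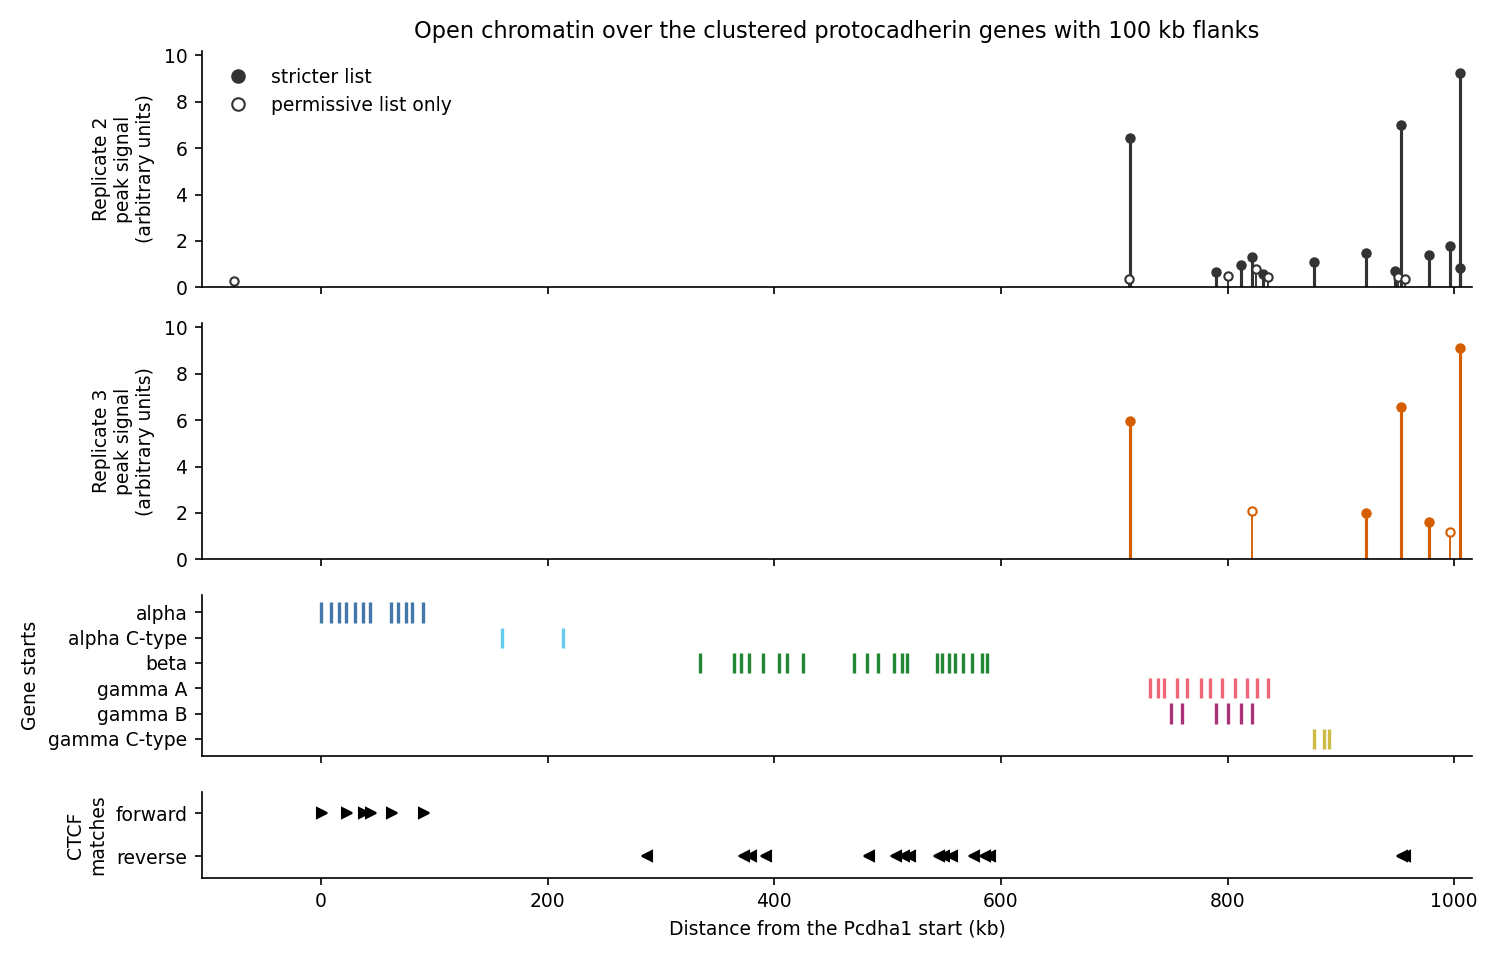
Peak signal in arbitrary units (vertical axes) along the cluster with 100 kb flanks, as distance in kb from the Pcdha1 start, for replicate 2 (top) and replicate 3 (second), with filled points for the stricter list and unfilled points for the permissive list only; gene starts by subfamily and matches to the CTCF consensus by strand stand underneath. The alpha and beta genes carry 0 peaks in both libraries, and all peaks inside the cluster lie at or beyond Taf7, next to and within the gamma genes.

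The alpha genes were without a peak, a footprint or a listed position over their whole length. The 12 alpha variable exons and the C-type exons of Pcdhac1 and Pcdhac2 share 3' constant exons, and the C-type members are known in neurons for more general expression than the other variable exons. Over the 257.5 kb from the start of Pcdha1 to the end of the alpha constant exons, both peak lists, the footprint list and the false discovery rate list of both libraries held 0 entries. This includes Pcdhac1, whose variable exon starts at 37090013, and Pcdhac2, which starts at 37143503. The nearest stricter peak lay 127 to 340 kb from an alpha start in replicate 2 and 128 to 341 kb in replicate 3. The interval of 77.28 kb between the alpha and beta genes also held 0 entries in every list.

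The beta genes gave the same picture. The 22 beta genes occupy 259.5 kb, and both libraries had 0 stricter peaks, 0 permissive peaks, 0 footprints and 0 listed positions there. The nearest stricter peak to a beta start was 126 to 379 kb away in both libraries. From the start of Pcdha1 to the end of the last beta gene, 594.3 kb were empty in all lists. The peak-free stretch in the stricter list of replicate 2 ran from 36803141 to 37644140, or 841.0 kb, and held the starts of 40 protein-coding genes, 36 of them members. In replicate 3 it measured 842.1 kb. Such stretches were not rare in length, since 540 of 37443 stretches between peaks in replicate 2 (1.44%) and 620 of 16769 in replicate 3 (3.70%) were longer. With as many protein-coding starts inside, there were 16 other stretches in replicate 2 and 18 in replicate 3. In the permissive list of replicate 2 the stretch was 790.2 kb, bounded by a peak of signal 0.26 between genes at -77.06 kb from the Pcdha1 start and by a peak of signal 0.37 in a coding exon of Taf7.

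The members with a promoter peak were all gamma genes. The gamma genes occupy 180.1 kb. Replicate 2 had 5 stricter peaks there, or 27.8 per Mb, beside 14.0 per Mb over the genome and 11.3 on chromosome 18. Replicate 3 had 0, beside 6.26 per Mb over the genome. Of the 21 gamma members, 4 had a stricter promoter peak in replicate 2 (19.0%, interval 7.67 to 40.0), which is below the share over all genes. With the permissive list it was 7 of 21 (33.3%, interval 17.2 to 54.6), and the 52.9% of all genes lies inside that interval.

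Among the gamma B genes, Pcdhgb7 had the strongest promoter peak of any member and was the member called in both libraries. Its peak spanned 37751481 to 37751640 in each, in the non-coding part of the variable exon and the bases before it. The signal was 1.31 in the stricter list of replicate 2, with a lowest false discovery rate of 2.54e-07, and 2.08 in the permissive list of replicate 3, where the lowest rate was 0.00227. The replicate 2 signal was above that of 51.3% of the stricter peaks of that library, so the strongest member stood near the middle of all peaks. Signals in the low range were whole multiples of 1 step per library. Pcdhgb7 stood at 175 steps in replicate 2 and 46 in replicate 3, so the larger signal of replicate 3 rested on fewer steps.

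Pcdhgb6 had a stricter peak in replicate 2 at 37741941 to 37742120, with a signal of 0.95 and a lowest false discovery rate of 8.91e-07. Pcdhgb4 had one at 37720290 to 37720440, with a signal of 0.64 and a lowest rate of 1.54e-05. Both were absent from both lists of replicate 3. Pcdhgb5 had a peak in the permissive list of replicate 2 alone, at 37730892 to 37731027, with a signal of 0.47 and a lowest rate of 0.0113. The other gamma B members, Pcdhgb1 and Pcdhgb2, had no call in any list. Gamma B promoters with a permissive peak in replicate 2 thus numbered 4 of 6 (66.7%), a share whose Wilson interval includes the 52.9% of all genes.

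The gamma A genes had 0 of 12 stricter peaks in either library. In the permissive list of replicate 2, Pcdhga11 had a signal of 0.77 at 37755618 to 37755755, with a lowest false discovery rate of 0.00425. The start of an antisense transcript, Gm26672, is annotated at 37755954, so the call cannot be given to 1 of these transcripts alone. Pcdhga12 had a signal of 0.45 at 37765832 to 37765970, with a lowest rate of 0.00433. Its peak centre lay 321 bp after the start, in the transcribed part of the exon, unlike those of the other members.

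Of the gamma C-type genes, Pcdhgc3 was open in replicate 2, with a stricter peak of signal 1.09 at 37806297 to 37806424 and a lowest false discovery rate of 0.000106. It was absent from both lists of replicate 3. Pcdhgc4, which is known to support the survival of neurons, and Pcdhgc5 had no call in any list of either library. Pcdhgb8, the pseudogene model, had a stricter peak in replicate 2 of signal 0.58 at 37761622 to 37761704, with a lowest rate of 0.000344, and none in replicate 3. This peak ended 97 bp before its annotated start.

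**Figure D2:**
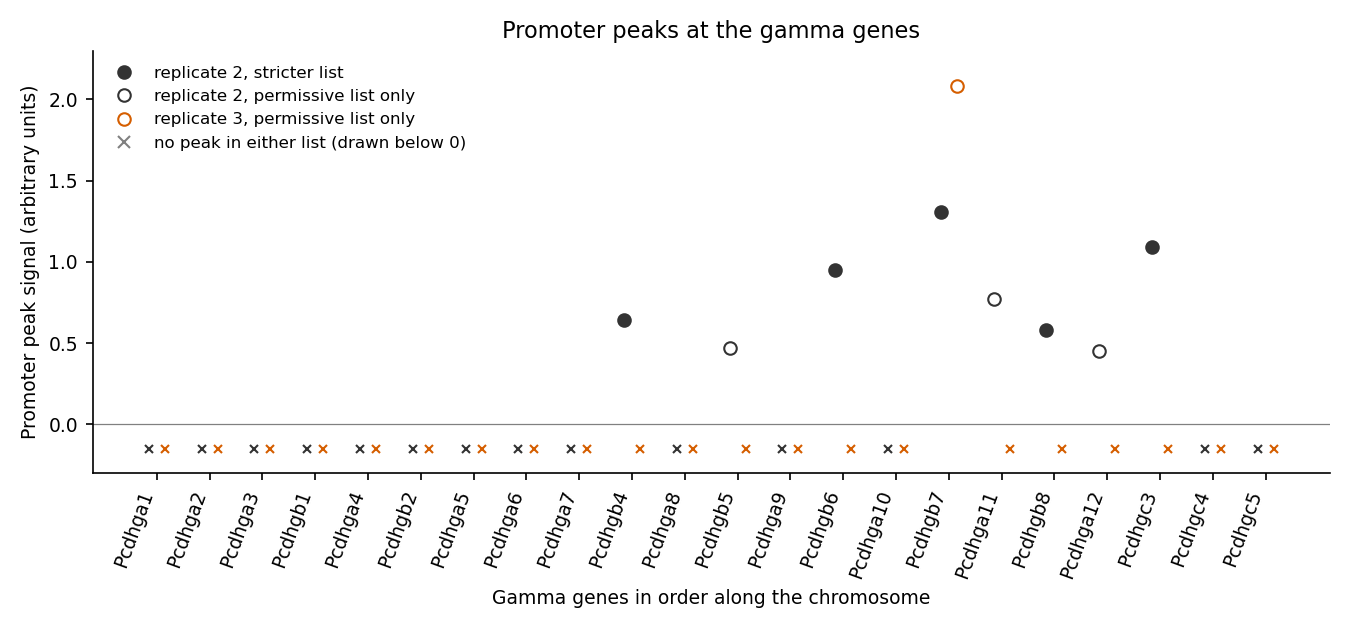
Promoter peak signal in arbitrary units (vertical axis) for the gamma genes and Pcdhgb8 in order along the chromosome (horizontal axis), with filled points for the stricter list, unfilled points for the permissive list only and crosses under the zero line for no peak in either list. Peaks of replicate 2 run from Pcdhgb4 to Pcdhga12 and stand again at Pcdhgc3, and the only point of replicate 3 is Pcdhgb7 at 2.08.

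Most gamma promoters with a call lay in 1 stretch of the array. The first 9 members in order along the chromosome, Pcdhga1 to Pcdhga7 with Pcdhgb1 and Pcdhgb2 among them, had 0 peaks in either list of replicate 2. Of the 9 members from Pcdhgb4 to Pcdhga12, whose starts span 45.2 kb, 6 had a permissive peak and 3 of these a stricter one. The 3 members without a call in that stretch were Pcdhga8, Pcdhga9 and Pcdhga10, which alternate with the gamma B genes Pcdhgb4 to Pcdhgb7. Pcdhgc3, with the second strongest signal of the members, lay outside the stretch. The bounds of the stretch were set by the peaks themselves, so these counts are a description.

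The gamma peaks were weak, and most peaks of that signal in replicate 2 were absent from replicate 3. Across the genome, replicate 2 had 15105 stricter peaks with a signal between 0.58 and 1.31, the range of its 5 stricter gamma peaks. Of these, 14.1% (interval 13.6 to 14.7) were also in the stricter list of replicate 3 and 36.1% (interval 35.3 to 36.8) in its permissive list. Over all stricter peaks of replicate 2 the shares were 42.5% and 58.7%. The missing calls of replicate 3 therefore do not show that the libraries differed at the gamma promoters, and the part of depth in them was not tested. When replicate 2 was held to its 17061 strongest peaks, the number in replicate 3, 0 members had a promoter peak.

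Footprints at the gamma promoters lay mostly before the start, as did the centres of most called peaks. Replicate 2 had 17 footprints in the promoter windows of the members, 12 of them wholly before the start and 12 inside stricter peaks. All 17 lay in permissive peaks, which were centred before the start except at Pcdhga12. Over all genes, the share of footprints before the start was not computed. Pcdhgb6 had 5, Pcdhgb7 had 4, Pcdhgb5, Pcdhga12 and Pcdhgc3 had 2 each, and Pcdhgb4 and Pcdhga11 had 1 each. Pcdhgb8 had 1 more, and widths ran from 7 to 24 bp over these 18 footprints. At Pcdhgb7 the widest covered the positions 73 to 50 bp before the start (-73 to -50), another covered the start (-9 to 1) and a further one lay just after it (4 to 12). At Pcdhgb6 all 5 lay between -152 and -70. The footprint of Pcdhgb4 covered the start (-11 to 8), and that of Pcdhga11 reached from -54 to -32.

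Clustered protocadherin promoters carry a conserved element with the core letters CGCT shortly before the start. On the strand of the gene, CGCT occurred within the 120 bp before the start in 45 of 57 members (78.9%), beside 31.1% of all protein-coding genes. On the opposite strand it occurred in 24.6% of members and 31.4% of all genes. The nearest CGCT was 20 to 101 bp before the start, with a median of 57 bp. It was present in 10 of 12 alpha, 16 of 22 beta, 11 of 12 gamma A and 6 of 6 gamma B genes, and among C-type genes in Pcdhac1 and Pcdhgc3. It overlapped a replicate 2 footprint in 3 members, Pcdhgb6, Pcdhgb7 and Pcdhga11. The share of all genes with such an overlap was not computed, so this count does not show that the element was bound. The gamma members with and without a permissive peak had CGCT in equal shares, 85.7% of 7 and 85.7% of 14. A match of 4 letters is a description of the sequence and no site. This motif was chosen after the promoter windows and the peaks had been seen, and the members share related sequence. Its share in the members is therefore a description and no test.

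**Figure D3:**
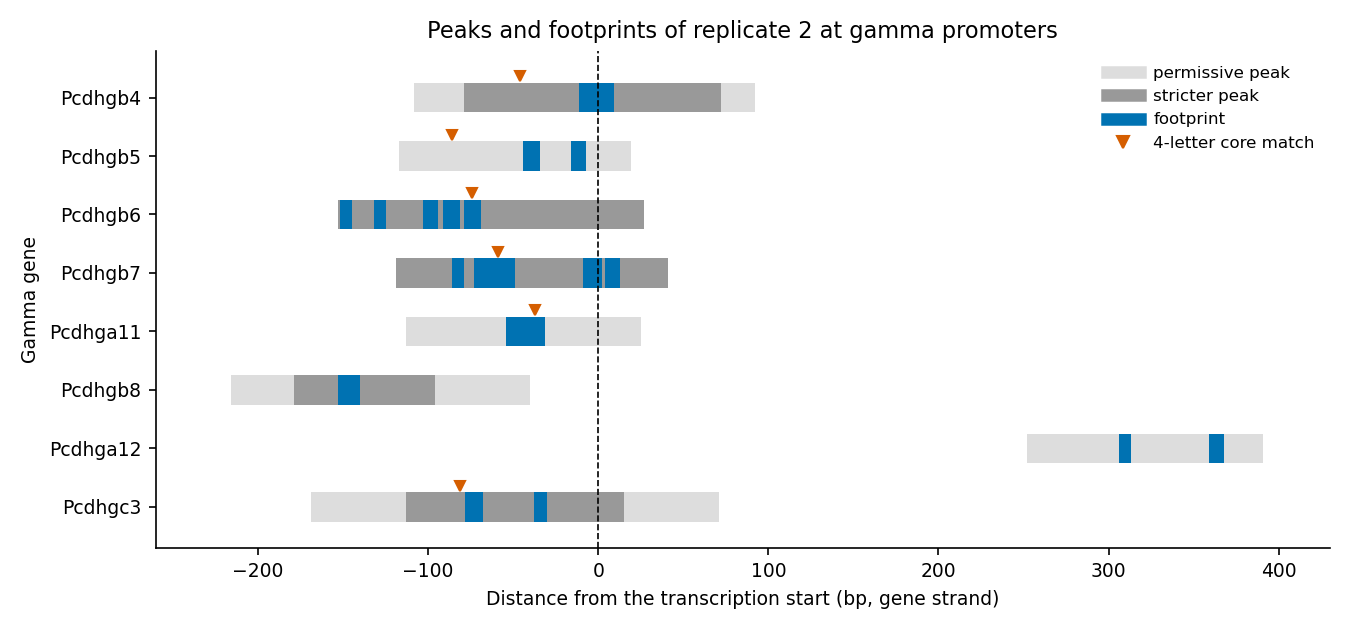
Positions of replicate 2 peaks (light bars permissive, dark bars stricter), footprints (blue) and the nearest 4-letter core matches on the gene strand (triangles, searched in members only) in bp from the transcription start (dashed line), 1 row for each gamma gene with a peak. Triangles fall on a footprint at Pcdhgb6, Pcdhgb7 and Pcdhga11, and the Pcdhga12 peak stands apart, centred 321 bp after the start.

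The observed over expected CpG ratio of the 1000 bp windows had a median of 0.56 over the members (range 0.16 to 0.86) and 0.57 over all genes. The median GC content of these windows was lower in the members, at 44.9% against 55.2% over all genes, and the bins of CpG ratio used below do not take GC content into account. The median CpG ratio was 0.69 in alpha, 0.62 in alpha C-type, 0.38 in beta, 0.59 in gamma A, 0.65 in gamma B and 0.67 in gamma C-type genes. The alpha promoters, with 0 peaks, therefore had a higher median than the gamma B promoters, of which several had a peak. Within the gamma members the order was the other way. The median was 0.68 in the 7 with a permissive peak in replicate 2 and 0.58 in the other 14. Whether CpG content bears on the calls was not tested. Among other genes with a ratio from 0.6 to below 0.7, 70.6% had a stricter promoter peak in replicate 2 and 59.1% in replicate 3. In the same range, 3 of 14 members had one in replicate 2 and 0 in replicate 3. Between 0.7 and 0.8 it was 81.2% and 69.9% of other genes, and 1 and 0 of 7 members. Between 0.5 and 0.6 it was 60.7% and 44.0% of other genes, and 0 of 10 members in each library. The 25 members with a ratio under 0.5 had 0 stricter peaks, in a range where 5.41% to 36.2% of other genes had one in replicate 2, depending on the bin.

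**Figure D4:**
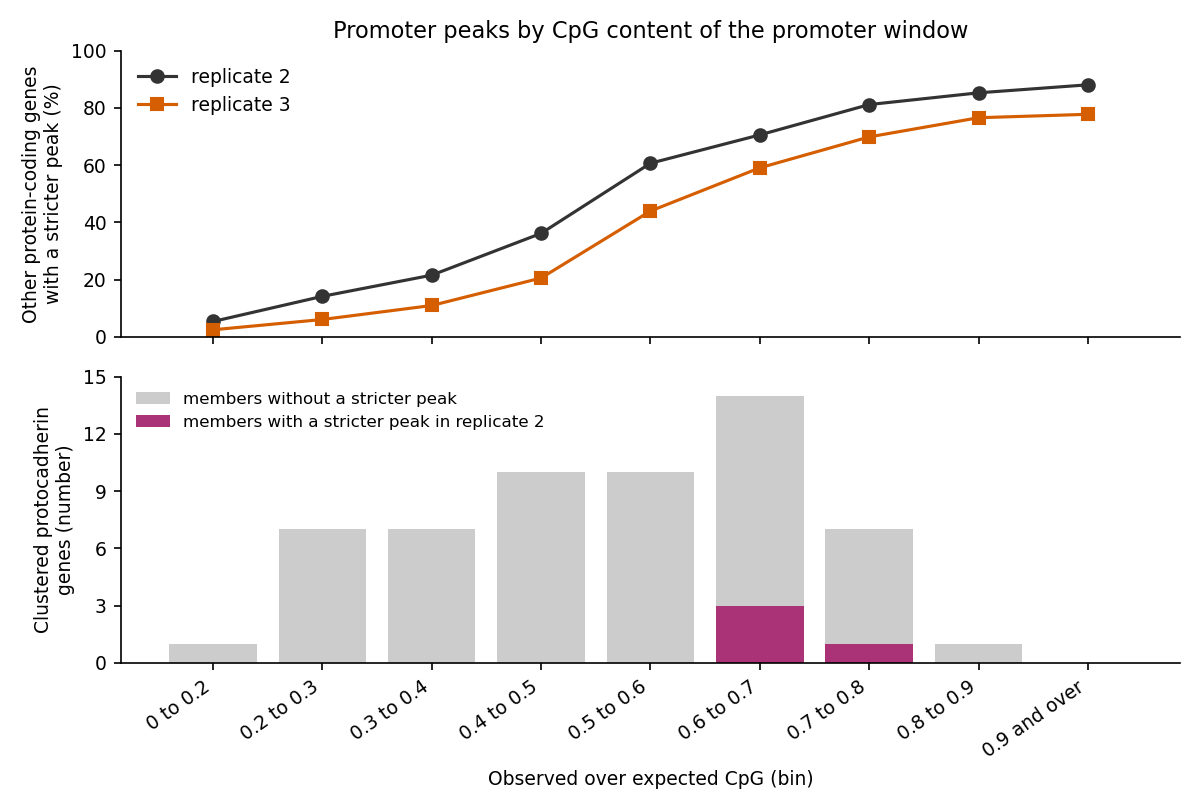
The upper panel gives the percentage of other protein-coding genes with a stricter promoter peak in each library and the lower panel the number of clustered protocadherin genes with and without one in replicate 2, both by bin of the observed over expected CpG ratio of the promoter window. The share of other genes rises to 88.1% in replicate 2, while members with a peak number 3 of 14 in the bin from 0.6 and 1 of 7 in the next.

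Repeated sequence was present in the cluster, and reads from repeated stretches cannot be placed uniquely. The share of 31-mers found once in the genome was 77.0% over the alpha genes, 79.0% over the beta genes and 93.1% over the gamma genes. In the promoter windows the median was 77.8% in alpha, 100% in beta, 97.8% in gamma A, 80.1% in gamma B and 100% in both C-type groups. The 7 gamma promoters with a permissive peak had a median of 80.3%, and the other 14 had 98.2%. The peaks of Pcdhgb6 and Pcdhgb7 themselves were 72.8% and 69.4% unique, and the other gamma peaks were 100% unique. The read length is unknown here, and how mapping was done at these copies was not tested.

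CTCF binding sites in the alpha promoters and exons are known to point towards the enhancers of the cluster. No member had an exact match to the 12 bp CTCF consensus within 500 bp of the start, beside 0.993% of all genes. That says only that the consensus is not in these windows. With 1 mismatch allowed, 3 members had a match, namely Pcdha5, Pcdhb8 and Pcdhgb1. Within 1000 bp, 6 of 57 members (10.5%) had an exact match, beside 1.66% of all genes. They were Pcdha1, Pcdha4, Pcdha6, Pcdha7, Pcdha8 and Pcdha12.

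The exact matches had an ordered arrangement over the cluster. The 6 alpha matches all lay on the plus strand, in the coding part of the variable exon, 537 to 581 bp after the start. The 13 beta matches all lay on the minus strand, each in the coding exon of a different beta gene, 2271 to 2810 bp after its start with a median of 2387. A further minus-strand match stood between the alpha and beta genes at 37217468 to 37217479, outside any exon. The gamma genes and the interval before them held 0, and 2 minus-strand matches lay in introns of Diaph1 after the gamma genes. The matches within a subfamily sit in related sequence and are not independent of each other.

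None of these 22 matches overlapped a stricter peak in either library. Only the 2 Diaph1 matches lay outside the 594.3 kb that were empty in all lists. For the others, the absence of peaks and footprints repeats that result. Of the 13119 matches over the genome, 29.1% overlapped one in replicate 2 and 14.1% in replicate 3. For footprints it was 1 of 22 (4.55%) in replicate 2 and 0 in replicate 3, beside 30.2% and 6.51% over the genome. The match with a footprint, at 37883728 to 37883739, began 8 bp after the end of the strongest intronic peak of Diaph1. The other Diaph1 match, at 37887168 to 37887179, lay in a permissive peak of replicate 2 with a signal of 0.34.

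The strong peaks of the region belonged to neighbouring genes. Taf7, which encodes a subunit of the general transcription factor TFIID, starts between the beta and gamma genes. Its promoter peak at 37644141 to 37644360 reached signals of 6.43 and 5.96 in replicates 2 and 3, with 4 footprints in each. In replicate 2 that signal was above 93.4% of the stricter peaks, and the permissive list held 1 more peak in a coding exon of Taf7 (0.37). Diaph1, which encodes a formin that nucleates actin filaments, lies after the gamma genes. Its promoter peak reached 9.22 in replicate 2 (37935441 to 37935620) and 9.12 in replicate 3 (37935421 to 37935720). A second peak in its promoter window, at 37934819 to 37935067, was in replicate 2 alone (0.81).

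Introns of Diaph1 held further open sites within the 100 kb after the last gamma exon. The strongest, at 37883561 to 37883720 and 41.8 kb after the gamma genes, reached 7.01 in replicate 2 and 6.59 in replicate 3. The nearest to the gamma genes, at 37852201 to 37852420, lay 10.4 kb after them and had 1.48 and 1.99. That peak held 2 minus-strand CTCF matches when 1 mismatch was allowed, both on footprints of replicate 2. In replicate 3 the peak held 0 footprints. Among the other stricter peaks of the region, only the Diaph1 promoter peak of replicate 3 (37935421 to 37935720) held such a match. It was 1 minus-strand match, on a footprint of that library. How often such looser matches occur in peaks outside the region was not tested. A site 66.4 kb away, at 37908181 to 37908340 in replicate 2, had 1.39 and 1.63. The site at 37925961 to 37926160 had 1.79 in the stricter list of replicate 2 and 1.17 in the permissive list of replicate 3. The site at 37877471 to 37877589 was in replicate 2 alone (0.69). Which gene these sites act on cannot be read from these data.

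Over the cluster with 100 kb flanks, replicate 2 had 13 stricter peaks (11.7 per Mb) and replicate 3 had 5 (4.50 per Mb), and all 5 overlapped peaks of replicate 2. Within the cluster alone it was 6 (6.58 per Mb) and 1 (1.10 per Mb), the latter at Taf7. The flank before the alpha genes had 0 stricter peaks in either library. Footprints numbered 46 in replicate 2 and 12 in replicate 3 over the region with flanks. Of the 12 in replicate 3, 10 overlapped one of replicate 2, and all 12 lay in stricter peaks. The 18 gamma footprints of replicate 2 overlapped 0 of replicate 3. Read-through gene models (Gm42416, Gm37013 and Gm37388) span much of the cluster, and the models Gm37165, Gm26672 and BC037039 overlap gamma peaks, so a peak inside the cluster lies in several annotated genes.

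Other cadherin genes were also mostly without promoter peaks. Of all protein-coding genes, 49.2% had a stricter one in replicate 2 and 39.9% in replicate 3. None of the 12 non-clustered protocadherins listed had a stricter promoter peak in either library, and in the permissive list of replicate 2 Pcdh1 (0.36) and Pcdh7 (0.44) had one. The first 4 in alphabetical order with no call in any list were Pcdh10, Pcdh11x, Pcdh12 and Pcdh15. Of 19 other members of the cadherin superfamily, 2 had a stricter peak in replicate 2 and 1 in replicate 3. Cdh1, which encodes E-cadherin, had 0.97 and 1.31. Celsr2 had 1.19 in the stricter list of replicate 2 and 1.40 in the permissive list of replicate 3. Cdh11, Cdh13, Cdh15 and Cdh2 had none. Of 6 neuronal markers, Syp, which encodes synaptophysin, had 1.32 and 2.48, Tubb3 had 1.07 in replicate 2 alone, and Snap25, Syt1, Rbfox3 and Map2 had no stricter peak.

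Most genes listed for CTCF, cohesin, silencing and DNA methylation had a promoter peak. Whether each of these proteins acts on the cluster was not tested. Over all protein-coding genes, the share with a stricter promoter peak was 49.2% in replicate 2 and 39.9% in replicate 3. In the CTCF and cohesin list, 14 of 14 genes had a stricter promoter peak in replicate 2 and 13 in replicate 3. Smc3 had 11.12 and 10.75, Stag1 10.77 and 13.01, Esco2 7.76 and 5.92, and Wapl 7.59 and 6.10. Hdac8 had 0.52 in replicate 2 and was the 1 gene missing from the stricter list of replicate 3. In the list of silencing and DNA methylation regulators, 15 of 16 had a stricter peak in replicate 2 and 11 in replicate 3. Dnmt1, the maintenance DNA methyltransferase, had 9.33 and 8.09, Trim28 had 6.85 and 7.95, and Ehmt1 had 6.18 and 7.18. Tet1 had no call in either list.

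The cytoplasmic partners are kinases, the adaptor Pdcd10 and subunits of the WAVE actin regulator. Of these 8, 7 had a stricter promoter peak in replicate 2 and 6 in replicate 3, beside 49.2% and 39.9% of all genes. Pdcd10 had 14.25 and 14.64, Fyn 5.66 and 4.83, Abi1 5.13 and 5.06, and Wasf1 3.22 and 2.67. Ptk2b had no stricter peak and a signal of 1.37 in the permissive list of replicate 2. An open promoter of these genes says nothing of the protocadherin cluster itself.

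**Figure D5:**
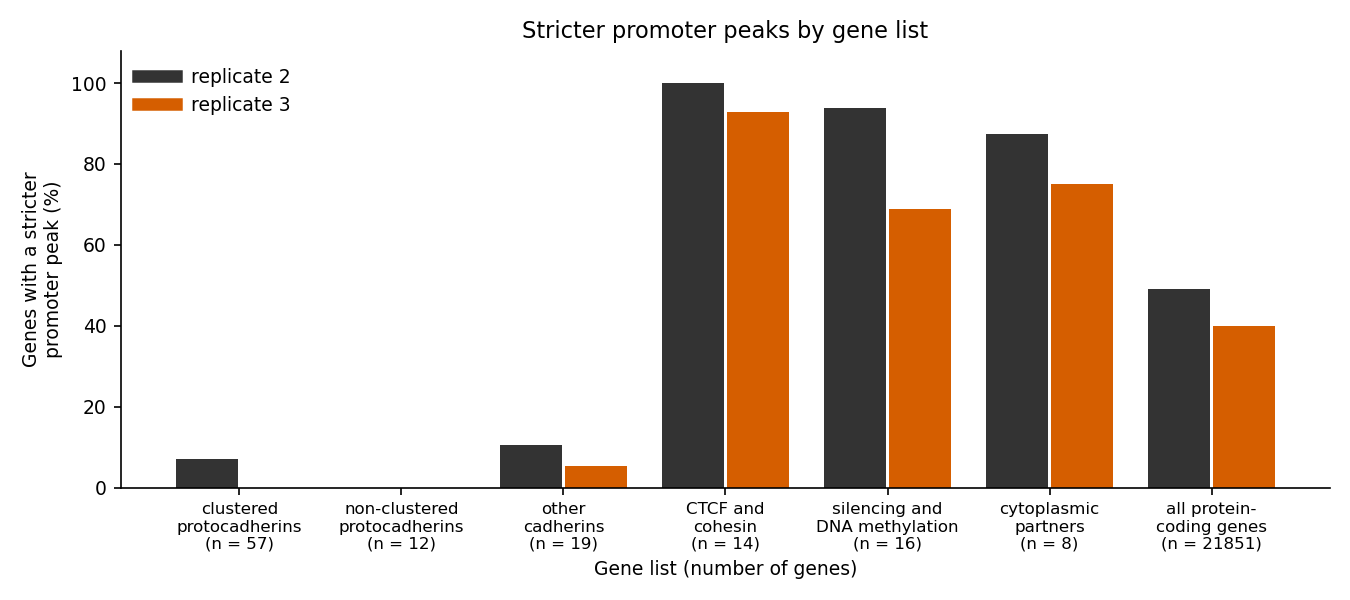
Percentage of genes with a stricter promoter peak (vertical axis) in replicate 2 and replicate 3 for each gene list (horizontal axis, with the number of genes). The clustered protocadherins stand at 7.02% and 0%, the non-clustered ones at 0% in both libraries, and the CTCF and cohesin list at 100% and 92.9%. All protein-coding genes stand at 49.2% and 39.9%.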

How the data were processed

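Each library had 2 peak lists, a list of false discovery rates and a list of footprints on mm10. Per the notes deposited with each library, each list came from that library's own alignments. For the aligner and callers, nothing is given in the sources used here. A peak's deposited signal has no scaling stated by the authors; low signals were whole multiples of 1 step per library (tolerance 0.05 of a step). The deposited false discovery rates (q-values) run up to 0.05. The deposited footprints carry 1 constant, so their intervals alone were used.

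Peaks and footprints were overlapped (1 bp or more) with starts of GENCODE M21 protein-coding transcripts. CpG ratios, motif matches and 31-mers were computed on GRCm38, whose chromosome 18 length of 90702639 bp matched. Code was tested on simulated data (Python 3.11.15, numpy 2.4.6, matplotlib 3.10.9). Shares have Wilson 95% intervals. With 1 group there was no comparison between groups.

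Named are every member with a peak, footprint or listed position in its promoter window, the C-type members, other genes holding a stricter peak in the region, and in each list the 4 highest signals of replicate 2 and up to 4 genes with no peak in alphabetical order. A few markers outside this rule are named as well. A gene that this rule selects is not reported here. The members and lists were chosen with earlier results of these data known. Alternatives changed the peak list, window, flank, overlap, number of peaks, motif and libraries used. Counting Pcdhgb8 and searching CGCT were chosen after seeing the data.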

Additional observations from a re-analysis of the deposited data

How the results depend on the processing

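The count of members with a stricter promoter peak in both libraries was 0 with every window, start, overlap and equal-number setting, and 1 with the permissive lists. Of the settings that gave 0, only the windows of 1000 and 2000 bp could have raised the count. The 200 bp window and the start, overlap and equal-number settings can only remove calls. From single libraries the count ranged from 0 to 4. The replicate 2 count of 4 stayed within 1.5 times with windows of 200, 1000 and 2000 bp, became 5 with Pcdhgb8, 7 with the permissive list and 0 with equal numbers of peaks. The replicate 3 count became 1 with the permissive list. Peaks shared over the region (5) became 1 with no flank, 3 with 50 kb and 14 with 200 kb, and ranged from 5 to 13 from single libraries. In replicate 2 the 13 peaks became 20 with the permissive list, 6 with no flank, 28 with 200 kb and 5 with equal numbers. In replicate 3 the 5 peaks became 1, 3 and 14 with no, 50 kb and 200 kb flanks. Footprints of replicate 3 shared with replicate 2 (10) became 3, 5 and 28 with those flanks, 2 when 50% of both had to be shared, and ranged from 12 to 46 from single libraries. Members with a CTCF match (0) became 3 with 1 mismatch and 6 within 1000 bp. The CGCT core, a different motif searched in the 120 bp before the start, was in 45 members. Listed related genes with a peak in both libraries (31) ranged from 31 to 38 over their alternatives. Changes with flank length follow from the length covered. No paired analysis was possible because there is 1 group and no test.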
